A study of Homo sapiens with 5 samples.

Results

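The messenger RNAs (mRNAs) of 10 heterogeneous nuclear ribonucleoproteins (hnRNPs) were followed in RNA immunoprecipitation sequencing (RIPseq) of CBFB and hnRNPK: HNRNPA1, HNRNPA2B1, HNRNPC, HNRNPD, HNRNPF, HNRNPH1, HNRNPL, HNRNPM, HNRNPU and HNRNPUL1. They were chosen by gene symbol, not by a measured value, but with earlier results of these data known. They were matched through the Ensembl gene identifiers of the deposited tables. They are 10 of 56632 gene identifiers in the tables, and all 10 were among the 11764 genes analysed, which had a mean level of at least 1 FPKM (fragments per kilobase of transcript, scaled to the library total) over the 5 libraries. The cells were MCF10A, a non-tumorigenic human mammary epithelial line, given no treatment. One input and 1 FLAG RIP library came from MCF10A cells expressing FLAG-tagged CBFB, so that RIP reads a tagged protein expressed from a construct. Whether these cells also held endogenous CBFB is not given in the labels. One input and 2 hnRNPK RIP libraries came from parental MCF10A cells, with the endogenous protein precipitated. A mock precipitation was not analysed here, and nothing in the labels says that the 2 hnRNPK libraries came from separate cultures, so their spread may be technical.

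The hnRNPs are abundant RNA-binding proteins that coat newly made transcripts and act in splicing, export, stability and translation of mRNA. Many of them bind the transcripts of hnRNP genes, their own included, and control their splicing and decay. hnRNPK holds KH domains, which bind single-stranded C-rich RNA, and CBFB is known as the partner subunit of the RUNX transcription factors. The study used RIPseq to ask which mRNAs each of these proteins was bound to. Here the question was whether mRNAs of other hnRNPs were recovered with either protein.

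Because hnRNPK prefers C-rich RNA, runs of at least 4 C (CCCC, on the transcript's own strand, overlapping runs joined) were counted in 1 annotated transcript of each gene, and 98.1% of 10505 protein-coding transcripts held such a run. The windows of 30 bases richest in C are shown for the 2 members recovered better with hnRNPK than the average analysed gene (HNRNPUL1, HNRNPC). That of the member with the fewest C runs per kilobase (HNRNPA2B1) is shown too. HNRNPL, one of the lower members, had more C runs per kilobase than any other member. Capitals mark runs of at least 4 C. Sequences and positions are those of GENCODE release 29 on GRCh38, 5′ to 3′ on the transcript strand.
HNRNPUL1: cccggCCCCCtataCCCCaccgccaCCCCC
HNRNPC: cacccttctccgtCCCCtctactcagctcc
HNRNPA2B1: cgccgggtcccgtgcggaggtgctcctcgc
The HNRNPUL1 window lies in the coding part of exon 14 of 15 (chr19:41305792-41305821, plus strand) and holds 21 C. Its count was reached in 13.4% of transcripts. The HNRNPC window starts in coding exon 4 of 9 and crosses an exon junction (chr14:21230363-21230983, minus strand, intron included). It holds 17 C, which 68.0% of transcripts reached. Lower members reached it too, with 19 C in the richest window of HNRNPF and 17 C in those of HNRNPH1 and HNRNPU. The richest window of HNRNPA2B1, in the 5′ untranslated part of exon 1 of 11 (chr7:26200706-26200735, minus strand), holds 12 C and no run of 4, and 99.4% of transcripts reached that number. A further stretch in the 5′ untranslated part of HNRNPUL1 (chr19:41264391-41264420, plus strand) holds its longest run, of 9 C.
HNRNPUL1: attggagtgggCCCCCCCCCtttCCCCCtt

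The libraries held 69786576 to 106855647 expected counts. Mitochondrial genes took 4.27% and 11.2% of them in the FLAG-CBFB cell input and the parental input, 62.2% in the FLAG-CBFB RIP, 84.5% in hnRNPK RIP 1 and 86.6% in hnRNPK RIP 2, which left 12147500 to 102297000 counts on other genes. FPKM is a share of a library, and it was lower in the RIP than in its input for most analysed genes. This held for 92.7% of them with FLAG-CBFB and for 94.1% in both hnRNPK repeats. The part of the mitochondrial share in this was not tested. Enrichment was therefore taken as log2(FPKM + 1) in the RIP minus that in its own input, less the mean of this difference over all analysed genes (-1.34 for FLAG-CBFB and -2.61 and -2.68 for the hnRNPK repeats). A value of 0 means the recovery of the average analysed gene. All 10 epithelial markers checked, keratins and TP63 among them, were at an FPKM of at least 1 in both inputs. The summed FPKM of 8 markers of leukocytes, endothelium, fibroblasts and fat was 1.03 to 5.32 per library, and 3 or 4 of the 8 were at 0.

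HNRNPUL1 and HNRNPC were recovered better with hnRNPK than the average analysed gene, and the other 8 members less well. Values below 0, as for these 8 of 10, were found for 53.2% of all analysed genes. With FLAG-CBFB the same 2 members stood above 0 and the same 8 below, at smaller distances, where 64.9% of analysed genes lay below 0, but 4 of these 8 (HNRNPA1, HNRNPA2B1, HNRNPF and HNRNPH1) turned above 0 on TMM-scaled counts and HNRNPD and HNRNPM also did with DESeq2 size factors. HNRNPUL1, a nuclear protein with a nucleotide-binding domain that acts in RNA processing and the DNA damage response, had the lowest FPKM of the 10 in both inputs. Its FPKM was 112.20 in the FLAG-CBFB cell input, 79.84 in the FLAG-CBFB RIP, 104.26 in the parental input, then 191.05 and 193.02 with hnRNPK. The other 9 members had a lower FPKM in both hnRNPK RIPs than in the parental input, as had 94.1% of analysed genes, while HNRNPUL1 had a higher one, and it moved from the 10th place of 10 in the parental input to the 2nd in both RIPs. The expected counts behind these values were 34508, 22419, 21561, 60511 and 53795. Its centred enrichment was 3.52 ± 0.06 (SD, n = 2, both against 1 input) for hnRNPK, at percentile 97.5 of the analysed genes. For FLAG-CBFB it was 0.85, at percentile 89.5, but -0.49 without subtracting the mean over genes and -0.17 with that mean taken over all genes of the tables. The hnRNPK value stayed above 0 under each of the 13 other settings (0.87 to 5.01).

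HNRNPC, which forms the core tetramer of the nuclear ribonucleoprotein particle and binds U-rich RNA, was the 3rd most abundant member in the inputs and the most abundant in both hnRNPK RIPs. Its FPKM was 664.47 in the FLAG-CBFB cell input, 332.18 in the FLAG-CBFB RIP, 773.39 in the parental input, then 272.82 and 257.25 with hnRNPK. All RIP values lay below their input, but 35.3% and 33.3% of the parental FPKM were left in the hnRNPK RIPs, against 1.61% to 4.63% for the 8 lower members. The centred enrichment of HNRNPC was 1.10 ± 0.01 (SD, n = 2) for hnRNPK and 0.34 for FLAG-CBFB. Both values turned below 0 when the mean over genes was not subtracted (-1.54 for hnRNPK) or was taken over all genes of the tables (-0.93 and -0.68). The gap between HNRNPUL1 and HNRNPC does not depend on that mean, and was 2.37 and 2.47 in the hnRNPK repeats and 0.51 for FLAG-CBFB.

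**Figure D1:**
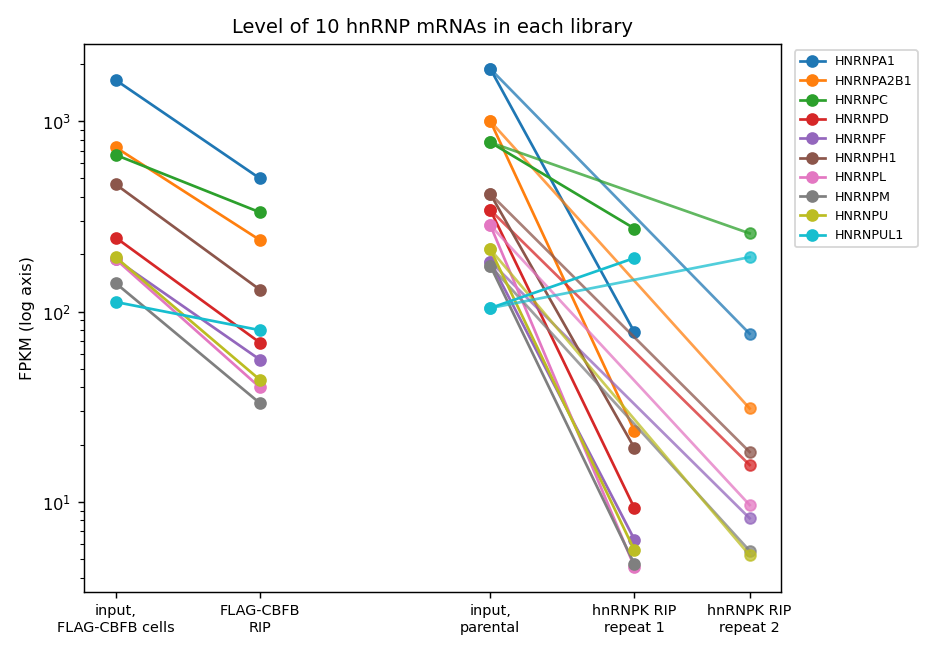
FPKM of the 10 hnRNP mRNAs (log axis) in the 5 libraries, 1 colour a gene, with lines from each input to its own RIPs. HNRNPUL1 goes from 104.26 in the parental input to 191.05 and 193.02 in the hnRNPK RIPs, HNRNPC keeps 272.82 and 257.25, and the other 8 lie at 77.92 or less there.

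The remaining 8 members were HNRNPA1 and HNRNPA2B1 (which act in splicing and transport of mRNA), HNRNPD (AUF1, which binds AU-rich elements and acts in mRNA decay), HNRNPF and HNRNPH1 (which bind G-rich RNA), HNRNPL (which binds CA repeats), HNRNPM (a splicing regulator) and HNRNPU (a nuclear scaffold protein that binds RNA and chromatin). HNRNPA1 was the most abundant member in both inputs. Its FPKM was 1642.44 in the FLAG-CBFB cell input, 500.39 in the FLAG-CBFB RIP, 1881.52 in the parental input, then 77.92 and 76.38 with hnRNPK. HNRNPA2B1, next in level in the inputs, had 727.96 in the FLAG-CBFB cell input, 237.47 in the FLAG-CBFB RIP, 998.87 in the parental input, then 23.62 and 30.95 with hnRNPK. In both genes every RIP lay below both inputs, and hnRNPK RIP lay below FLAG-CBFB RIP, as was also so for HNRNPC.

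HNRNPL had the lowest mean hnRNPK enrichment. Its FPKM was 188.10 in the FLAG-CBFB cell input, 39.97 in the FLAG-CBFB RIP, 283.68 in the parental input, then 4.56 and 9.63 with hnRNPK, and the repeats differed more on the log2 scale than for any other member. HNRNPU had 192.69, 43.82, 211.99, 5.57 and 5.24 in the same order. HNRNPM had 140.89, 33.02, 173.76, 4.71 and 5.53. By enrichment these 3 genes were the 3 lowest members in the FLAG-CBFB RIP. For hnRNPK HNRNPA2B1 (-2.51) lay below HNRNPU (-2.41) and HNRNPM (-2.19).

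HNRNPD had an FPKM of 244.35 in the FLAG-CBFB cell input, 68.68 in the FLAG-CBFB RIP, 341.12 in the parental input, then 9.28 and 15.62 with hnRNPK. HNRNPF had 187.75, 55.91, 183.04, 6.34 and 8.20 in the same order. HNRNPH1 had 465.15, 130.29, 414.45, 19.19 and 18.29. As in the other lower members, the hnRNPK RIPs lay below the FLAG-CBFB RIP, and both below their inputs. This order was not particular to them, since HNRNPC had it too. Over all analysed genes the median uncentred log2 ratio of RIP to input was -2.75 for hnRNPK and -1.53 for FLAG-CBFB.

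For hnRNPK the mean centred enrichment of the 8 genes lay between -2.57 ± 0.71 (HNRNPL, SD, n = 2) and -1.75 ± 0.003 (HNRNPH1), and HNRNPA2B1 was at -2.51 ± 0.32. HNRNPU was at -2.41, HNRNPM at -2.19, HNRNPD at -2.07, HNRNPA1 at -1.95 and HNRNPF at -1.84. With repeat SDs of up to 0.71, neighbours in this order cannot be told apart by 2 libraries, while HNRNPC and HNRNPUL1 lay above all 8 in both repeats. The smallest gap between HNRNPC and any of the 8 was 2.74 in a single repeat. All 8 were below -1 in both repeats, as were 22.4% of the analysed genes. The median of the 10 members was -2.01 and that of all analysed genes -0.11. Of the 10, 1 (HNRNPUL1) lay above 2, which is 4-fold on the FPKM + 1 scale, as did 8.2% of analysed genes, and 5 lay below -2, as did 6.24%.

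**Figure D2:**
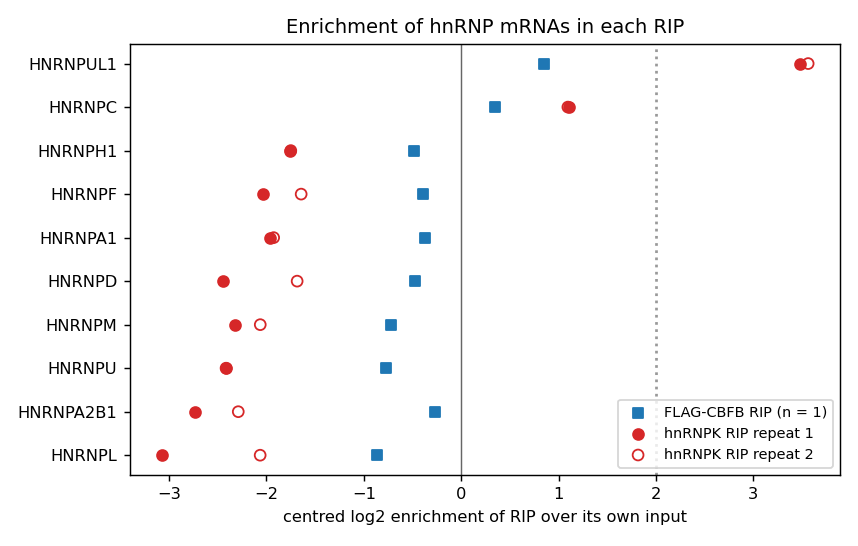
Centred log2 enrichment of each hnRNP mRNA in the FLAG-CBFB RIP (1 library) and in each of the 2 hnRNPK RIP libraries. The points of HNRNPUL1 (0.85, 3.48 and 3.56) and HNRNPC (0.34, 1.11 and 1.09) lie above 0, and the 8 others lie below 0 in all 3 comparisons.

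The low centred values of the 8 genes were set beside genes of like level. On log2(FPKM + 1) a gene that is weak in the input has little room to fall. The part of this limit in the low values was not tested. Among 840 genes with an FPKM of at least 100 in both inputs, a group set after the values were seen, the median hnRNPK enrichment was also -2.01. In that group 86.3% of genes lay below 0, 50.2% below -2 and 5.71% above 2. The percentiles of the 8 genes there ran from 18.3 (HNRNPL) and 21.1 (HNRNPA2B1) to 57.1 (HNRNPF) and 62.7 (HNRNPH1), with HNRNPA1 at 53.0. HNRNPUL1 was at percentile 97.0 and HNRNPC at 92.4. Thus 8 of the 10 mRNAs lay in the range common to abundant genes, and HNRNPUL1 and HNRNPC lay near its upper end. The group of 840 was not limited to mRNAs, and mitochondrial genes were not left out of it. With 0.1 added to FPKM in place of 1, the 8 genes lay at percentiles 3.49 (HNRNPL) to 27.3 (HNRNPH1) of all analysed genes, against 1.64 to 9.91 with 1.

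**Figure D3:**
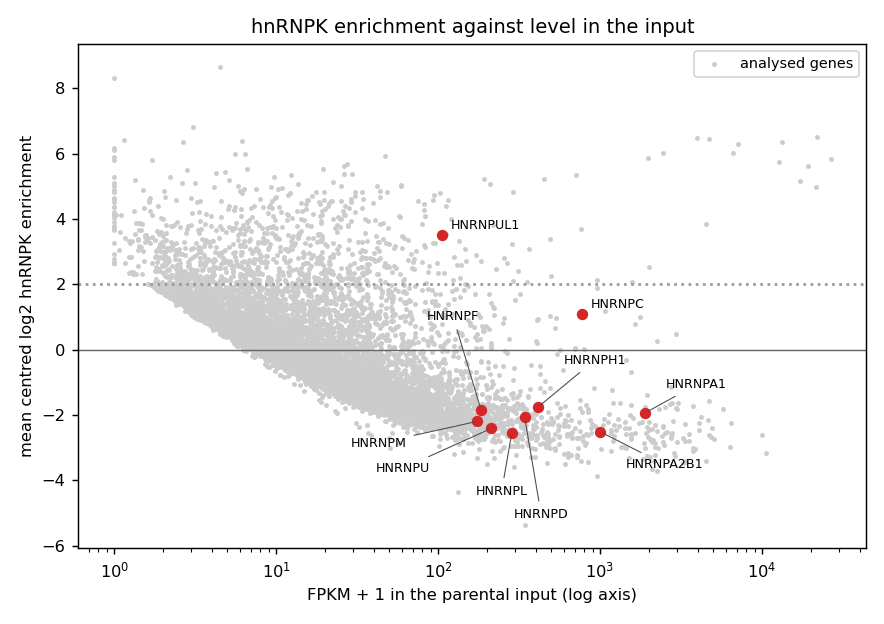
Mean centred hnRNPK enrichment (log2) against FPKM + 1 in the parental input (log axis) for the analysed genes (grey) and the 10 hnRNP mRNAs (red), with a dotted line at 2. The 8 lower members lie within the band of abundant genes, whose median among the 840 genes is -2.01, with HNRNPC at 1.10 and HNRNPUL1 at 3.52 near its upper end.

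The counts were tested for hnRNPK with edgeR's quasi-likelihood test on the rounded expected counts, with TMM (trimmed mean of M-values) scaling and Benjamini-Hochberg adjustment over all 11764 genes. Its spread comes from 2 RIP repeats, and the lone input is assumed to vary like them. After TMM scaling HNRNPUL1 (log2 fold change 4.91 ± 0.40, SE, adjusted p = 2.63e-08) and HNRNPC (2.58 ± 0.35, adjusted p = 8.78e-06) were higher in hnRNPK RIP. Lower counts were called for HNRNPL (-1.30 ± 0.37, adjusted p = 0.00891), HNRNPU (-1.26 ± 0.31, adjusted p = 0.00314), HNRNPM (-1.22 ± 0.33, adjusted p = 0.00682) and HNRNPA2B1 (-1.19 ± 0.31, adjusted p = 0.0057). HNRNPD (-0.61, adjusted p = 0.207), HNRNPF (-0.56, adjusted p = 0.2), HNRNPA1 (-0.27, adjusted p = 0.499) and HNRNPH1 (-0.25, adjusted p = 0.57) did not pass. With hnRNPK repeat 1 or 2 left out, HNRNPD was at -0.21 or -1.15, HNRNPF at -0.31 or -0.86 and HNRNPL at -0.91 or -1.84, values with no test.

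So 4 of 10 members were called lower and 2 higher, where 14.3% of all analysed genes were called lower and 24.6% higher. Among the 840 abundant genes 47.4% were called lower and 16.5% higher, so the 4 lower calls are near the share of abundant genes. With library totals that leave out mitochondrial genes in place of TMM, all 8 were called lower, but so were 63.6% of the genes tested, and the median of all genes moved from -0.10 to -1.45. HNRNPUL1 and HNRNPC were called higher under each of the 7 other settings of this test (DESeq2 among them). No setting used the full library totals without further scaling. The TMM factors were 6.30 for the parental input and 0.42 and 0.37 for the hnRNPK RIPs. Without centring, the FPKM enrichment for hnRNPK was 0.87 for HNRNPUL1 and -1.54 for HNRNPC.

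**Figure D4:**
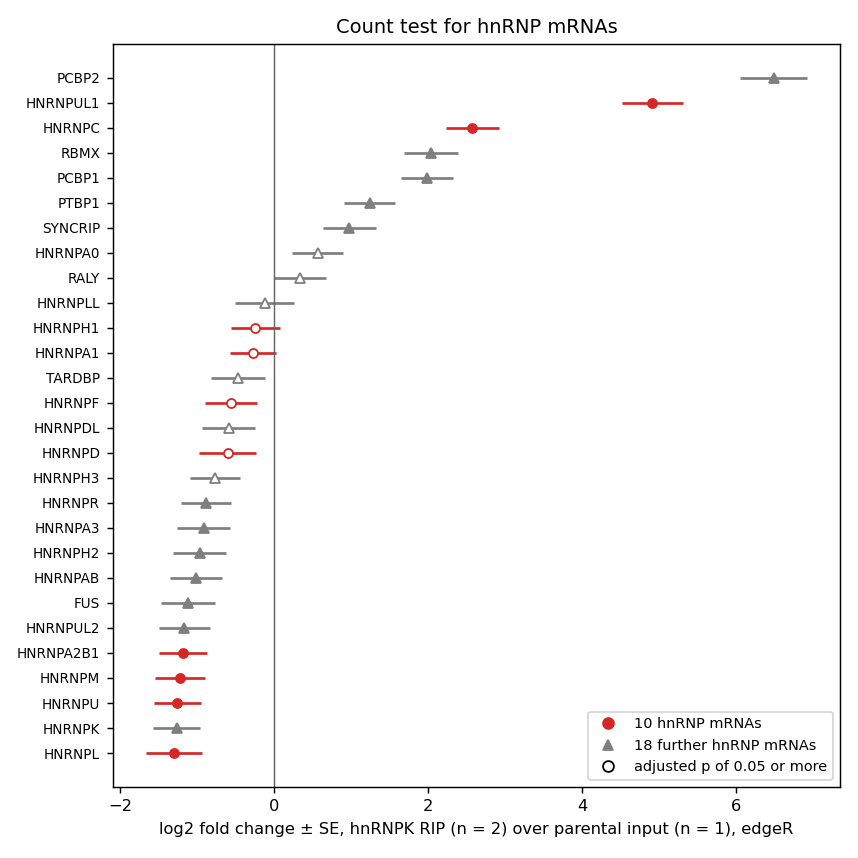
Log2 fold change of hnRNPK RIP over the parental input for the 10 hnRNP mRNAs (red circles) and 18 further hnRNP mRNAs (grey triangles) from edgeR, with bars of 1 SE. Filled symbols passed an adjusted p under 0.05. HNRNPUL1 (4.91) and HNRNPC (2.58) are higher, and HNRNPA2B1, HNRNPM, HNRNPU and HNRNPL (-1.19 to -1.30) are lower.

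The FLAG-CBFB RIP and its input are 1 library each, with no spread of their own, and were not tested. The FPKM of all 10 members was lower in the RIP, as it was for 92.7% of analysed genes. HNRNPUL1 kept 71.2% of its input FPKM, and the 8 lower members kept 21.2% to 32.6%, with HNRNPC between them. Centred enrichment was -0.27 for HNRNPA2B1, -0.37 for HNRNPA1, -0.39 for HNRNPF, -0.48 for HNRNPD, -0.49 for HNRNPH1, -0.72 for HNRNPM, -0.77 for HNRNPU and -0.87 for HNRNPL. Of the 10, 0 lay above 2, where 4.37% of analysed genes lay, and 0 below -2, where 0.0935% lay. The median of the 10 was -0.43 against -0.19 over all analysed genes and -0.28 over the 840 abundant ones, and on log2 CPM (counts scaled to the library total) with TMM factors it was 0.10.

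In the FLAG-CBFB RIP the lowest percentiles among the analysed genes were those of HNRNPL (6.79), HNRNPU (10.2) and HNRNPM (12.3). Of the 840 abundant genes 77.3% lay below 0 for FLAG-CBFB. In that group HNRNPL was at percentile 6.90, HNRNPU at 9.40 and HNRNPM at 11.5, and the highest of the 8 was HNRNPA2B1 at 51.4. The counting error behind the 8 FLAG-CBFB values, at 95%, was at most 0.0445 on the log2 scale, and the error between cultures is not known. The 2 inputs, which saw no antibody, differed by -0.56 (HNRNPL) to 0.20 (HNRNPH1) between members on the same centred scale (FLAG-CBFB cells minus parental), so 0 of 10 lay beyond 2 in either direction, as 1.33% of analysed genes did. The FLAG-CBFB enrichments of HNRNPA1, HNRNPA2B1, HNRNPC, HNRNPD, HNRNPF and HNRNPH1 were smaller in size than the HNRNPL difference between inputs, and those of HNRNPUL1, HNRNPL, HNRNPU and HNRNPM were larger.

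A further 18 hnRNP-family and related RNA-binding protein genes were described, all of them among the analysed genes. Their median centred enrichment was -1.34 for hnRNPK (range -2.59 to 5.24) and -0.44 for FLAG-CBFB (range -1.18 to 4.53), and 14 of the 18 lay below 0 for hnRNPK, as did 53.2% of analysed genes. By edgeR with Benjamini-Hochberg adjustment 7 were called lower and 5 higher, where 14.3% and 24.6% of all analysed genes and 47.4% and 16.5% of the 840 abundant ones were. PCBP2, a KH-domain poly(C)-binding protein related to hnRNPK, was the highest. Its FPKM went from 451.56 in the parental input to 3373.55 and 2219.80 in the hnRNPK RIPs and from 564.26 to 5173.64 in the FLAG-CBFB RIP (edgeR for hnRNPK 6.49, adjusted p = 8e-09).

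RBMX, the X-linked hnRNP G, was next for hnRNPK (0.75 ± 0.01, SD, n = 2; edgeR 2.04, adjusted p = 0.000116). HNRNPK itself, the transcript of the precipitated protein, was the lowest, with an FPKM of 528.88 in the parental input, then 15.10 and 11.36 with hnRNPK (edgeR -1.27, adjusted p = 0.00288). HNRNPA3, a close relative of HNRNPA1, was at -2.43 ± 0.51 (SD, n = 2; edgeR -0.92, adjusted p = 0.044). For reference on the same scale, RUNX1, the transcript the study set out from, was at 3.09 for hnRNPK and 2.13 for FLAG-CBFB, and GAPDH, a glycolytic enzyme, was at -2.69 and -0.18. HNRNPUL1 thus lay above RUNX1 for hnRNPK and below it for FLAG-CBFB, a difference with no test.

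The annotated transcripts of the members held a median of 2.08 runs of at least 4 C per kilobase, against 3.51 over 10505 protein-coding genes. HNRNPUL1 had 27 such runs in 3555 nucleotides (7.59 per kilobase, percentile 82.0), with 3 in the 5′ untranslated region, 12 in the coding sequence and 12 in the 3′ untranslated region. HNRNPL had more per kilobase (21 runs, 8.50, percentile 86.3), with 18 of them in the coding sequence and 0 in the 3′ untranslated region. HNRNPC, with 5 runs (2.92 per kilobase), was below the median of all genes. The others held between 0.58 (HNRNPA2B1) and 2.45 (HNRNPH1) runs per kilobase. The 2 members with the most C runs per kilobase thus lay on opposite sides of 0 in hnRNPK enrichment in both repeats (3.48 and 3.56 for HNRNPUL1, -3.07 and -2.06 for HNRNPL). The counted transcript can differ from the isoforms present in the cells. It has 4121 nucleotides for HNRNPA1 and 3667 for HNRNPH1, where the mean length weighted by isoform abundance was 1247 and 1068 in the parental input. All 9 runs of HNRNPH1 lie in a 5′ untranslated region of 1536 nucleotides. Runs in the isoforms present were not counted.

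Across the 10 members Spearman's rho between C runs per kilobase and hnRNPK enrichment was 0.39, with all points sharing the same 3 libraries. It was 0.24 over the 10505 genes and 0.40 over the 1017 of them with an FPKM of at least 100 in the parental input. For FLAG-CBFB the same values were 0.02, 0.23 and 0.21. These are descriptions across genes, which are not independent replicates, and a C run in a transcript is not a measured binding site.

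**Figure D5:**
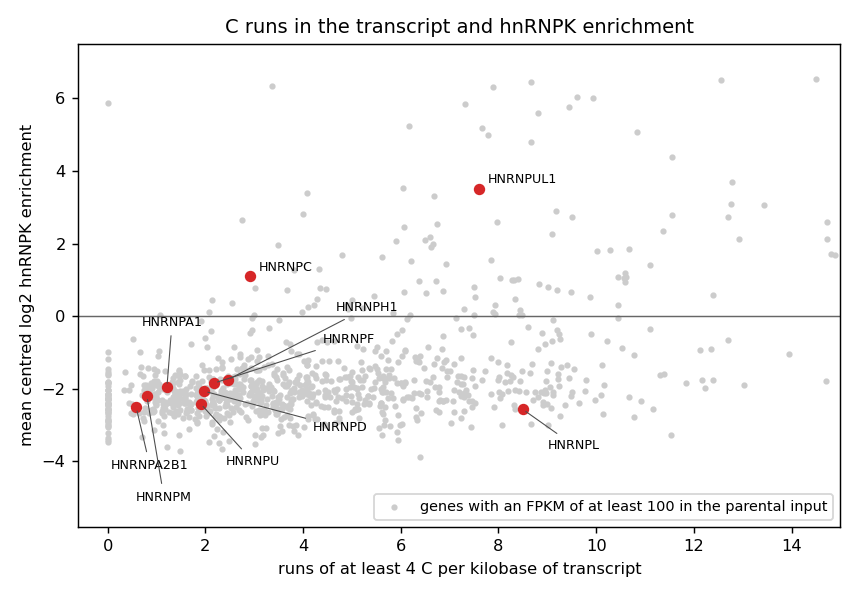
Mean centred hnRNPK enrichment (log2) against runs of at least 4 C per kilobase of transcript, for protein-coding genes with an FPKM of at least 100 in the parental input (grey, 14 of 1017 beyond the axis not drawn) and the 10 hnRNP mRNAs (red). HNRNPUL1 (7.59 runs per kilobase, 3.52) and HNRNPL (8.50, -2.57) have the most C runs per kilobase of the members and lie on opposite sides of 0.

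The mean transcript length that RSEM weights by isoform abundance was a further readout. For HNRNPUL1 it was 3050 and 3124 nucleotides in the FLAG-CBFB cell and parental inputs, 3256 in the FLAG-CBFB RIP, 3242 in hnRNPK RIP 1 and 3249 in hnRNPK RIP 2. For HNRNPA1 it was 1247 in the parental input, then 1569 and 1557 with hnRNPK, a ratio of 1.26 and 1.25, but also 1536 in the FLAG-CBFB cell input, so the 2 inputs differed by as much (1.23). The median ratio of RIP to input over the members was 1.05 for FLAG-CBFB and 1.08 and 1.06 for hnRNPK, and 1.03 between inputs. Over 7613 genes with at least 100 counts in every library, 51.2% had a ratio above 1 for FLAG-CBFB, as had 9 of the 10 members, and 60.5% had one between inputs, as had 8. With 1 library in most groups, these lengths have no test.

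Several members share sequence or position with other genes. HNRNPA1 has 77 annotated copies elsewhere in the genome, which held 3.09% to 4.81% as many counts as the gene itself, and HNRNPA1L3 held the most of any copy. HNRNPC has 11, with 0.29% to 0.46%, led by HNRNPCP2. HNRNPUL1 has none, but 215 bases of its exons overlap exons of TGFB1 on the opposite strand, and whether counting used strand is not given in the sources used here. TGFB1 held 4456 counts in the parental input, then 7106 and 4100 with hnRNPK, against 21561, 60511 and 53795 for HNRNPUL1. In the FLAG-CBFB pair TGFB1 went from 6568 to 9827 counts and HNRNPUL1 from 34508 to 22419, so TGFB1 was largest relative to HNRNPUL1 in the FLAG-CBFB RIP. The part of the overlap in the HNRNPUL1 values was not tested. HNRNPU overlaps COX20 by 3502 bases and HNRNPA2B1 overlaps CBX3 by 368 bases, both on opposite strands. No base of these 2 overlaps lies in the transcript used for the C runs, while 174 of the 215 bases of HNRNPUL1 do. The part of these overlaps in the values of HNRNPU and HNRNPA2B1 was not tested. A further identifier whose transcripts GENCODE 29 places in HNRNPU held 693 counts in the parental input, then 111 and 112 with hnRNPK and was kept apart.

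By the Euclidean distance of log2(FPKM + 1) over the 5 libraries, the protein-coding genes most like HNRNPUL1 were CS (distance 0.73), MSN (0.82) and PSME3 (0.87). They encode citrate synthase, moesin and a proteasome activator subunit. CS had an FPKM of 110.83 in the parental input, then 227.64 and 188.48 with hnRNPK. Those most like HNRNPL were TUBB4B (0.47), a beta-tubulin, PSMD4 (0.68), a proteasome subunit, and EBP (0.69), a sterol isomerase. TUBB4B had an FPKM of 352.65 in the parental input, then 4.23 and 11.31 with hnRNPK.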

How the data were processed

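RNA of 5 RIPseq and input libraries from MCF10A cells was measured. The authors deposited 1 RSEM gene table a library, made from trimmed reads, with Trimmomatic, STAR, RSEM and build hg19 named in the submitters' processing notes. Expected counts, as deposited, are RSEM's estimated counts per gene and are not normalized. FPKM, as deposited, is scaled by the authors' tool to gene length and library total, as is TPM, which was not used. RSEM's transcript length, as deposited, is weighted by isoform abundance. The versions, annotation release and counting strand are not given in the sources used here.

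Gene names, transcripts and positions came from GENCODE 29 (GRCh38) by Ensembl identifier: 50276 of 56632 identifiers matched directly, 1221 through their transcripts and 5135 not. No coordinate was converted between builds. Genes were kept where FPKM averaged 1 or more across libraries. Enrichment was log2(FPKM + 1), RIP minus own input, centred on the mean over kept genes. FLAG-CBFB (1 against 1) was not tested. For hnRNPK (2 against 1), expected counts were rounded and tested with edgeR 4.0.16 (quasi-likelihood, TMM factors, two-sided) in R 4.3.3, with Benjamini-Hochberg adjusted p under 0.05. Its p-values measure only the spread between these samples. The 2 hnRNPK libraries differed by far more than sampling noise (chi-square of 89.5 per degree of freedom over genes) and were kept as separate libraries. On simulated counts for this comparison over 11764 genes the test recovered 200 of 200 genes changed 4-fold, with 4 false calls. The number of false calls with the mitochondrial shares and repeat spread of the real libraries was not tested. Reads carry no molecular identifiers, so counting errors cover counting only, with totals of 69786576 to 106855647 expected counts per library.

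The text names all 10 members, and of 18 other hnRNP genes the 2 highest and 2 lowest by hnRNPK enrichment. It also names RUNX1, GAPDH and HNRNPK as references, the copy with the most counts, and the 3 genes nearest to the highest and lowest member. HNRNPUL1's and other members' overlapping genes were named after their values were seen. The members and gene lists were chosen with earlier results of these data known. Of 9 markers of other cell types 1 was not analysed here. Alternatives were other centrings, pseudocounts, filters, scalings and inputs, DESeq2 1.42.0, the copies summed, and each repeat left out. One alternative, centring on abundant genes, was chosen after seeing the data. The C-rich window of HNRNPL is not reported here.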

Additional observations from a re-analysis of the deposited data

Results flagged for a closer look

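RBMX lay on opposite sides of 0 in the immunoprecipitations. Its centred log2 enrichment was -0.557 for FLAG-CBFB, with an FPKM of 222.05 in the input and 58.89 in the RIP, and 0.750 and 0.742 in the hnRNPK repeats, with an FPKM of 155.76 in the input and 42.21 and 39.93 in the RIPs. It was looked at again because every library of one immunoprecipitation moved one way and every library of the other the opposite way, a difference of -1.30 that was not tested. Without centring both values were -1.90, and with each RIP set against the other input they were -0.02 for FLAG-CBFB and 0.21 for hnRNPK, so the opposite signs depend on the centring and the size on the input. RBMX was at 2.04 (adjusted p = 0.000116) by edgeR for hnRNPK.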

How the results depend on the processing

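The median FLAG-CBFB enrichment of the 10 mRNAs (-0.43) was -1.77 without centring, -0.24 with median centring, -0.22 with a pseudocount of 0.1, -1.46 over all genes, -0.35 at a mean FPKM of at least 5, -0.21 with FPKM rescaled without mitochondrial genes, -0.62 with the other input, and -0.37 centred on abundant genes. On log2 CPM it was 0.10 with TMM and 0.15 with DESeq2 size factors, above 0. The median hnRNPK enrichment (-2.01) was -4.65 without centring, -1.29 with a pseudocount of 0.1, -4.04 over all genes, -1.55 at a mean FPKM of at least 5, -1.22 without mitochondrial genes, -0.76 with TMM, -0.59 with DESeq2 size factors and -0.52 centred on abundant genes. It was -2.18 to -1.84 with either repeat left out. The count of 4 lower calls by edgeR became 8 with totals without mitochondrial genes and 6 without a filter on low values, and the 2 higher calls held in each of the 7 tests. With 1 repeat left out the edgeR fit could not be tested and gave values only. No paired analysis was possible because the 2 hnRNPK repeats share 1 input and no other group has repeats. The share of mitochondrial reads limits the depth on the members to as little as 12147500 counts over all other genes in hnRNPK RIP 2.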
